A study of Mus musculus with 6 samples.

Results

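The comparison described here is that of hearts from mice given ginsenoside Rh2 alone at 20 mg/kg with hearts from mice given vehicle. It used 2 of the 6 libraries of the study, Rh2-20 mg/kg and Control, and every gene that averaged 10 or more read counts over the 6 libraries, which kept 18328 of the 45777 genes in the table. Each library was made from RNA pooled from the hearts of 5 mice and each condition had 1 library, so no replicate error can be given, and no test or p-value is reported. A difference between the 2 libraries cannot be told apart from variation between pools of animals.

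The mice were BALB/c nude (CAnN.Cg-Foxn1nu/Crl), an athymic strain with few mature T cells, labelled as 6 weeks old. The study's methods describe them as female and in 1 place call them wild-type. All mice, Control included, carried human MDA-MB-231 breast tumour cells placed under the skin at day 0. From day 7 the Rh2-20 mg/kg mice were injected daily for 3 weeks with Rh2 in PBS and Tween 80, and the Control mice received vehicle, named as saline in the study's text. Neither group received doxorubicin (Dox). The other 4 libraries came from mice given Rh2 at 30 mg/kg, Dox with Rh2 at 20 mg/kg, Dox with Rh2 at 30 mg/kg, or Dox alone, and their values are given below in that order. Dox was given at 2 mg/kg every other day, 22 mg/kg in all. Rh2-20 mg/kg + Dox set against Dox formed a pair at the same Rh2 dose that shared no library with the main pair.

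Ginsenosides are triterpene saponins of ginseng, and Rh2 is a member with a single sugar on a dammarane skeleton that is studied for effects on tumour cells and inflammation. A whole heart holds ventricular and atrial muscle, endothelium, fibroblasts, resident macrophages, nerve, the mesothelial layer of the epicardium, some fat and blood. RNA from all of them enters a bulk library.

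The libraries held 86164411 to 90621002 counts, of which Control had 86755312 and Rh2-20 mg/kg 89419499. Both had the makeup of heart muscle. Myh6, the main myosin heavy chain of the adult mouse heart, had an FPKM, a level scaled for gene length and library size, of 1643 in Control against 1630 in Rh2-20 mg/kg, and Myl2, the ventricular regulatory light chain, 1596 and 1459. Of markers for other tissues, Lep of white fat, Sftpc of lung alveoli, Ptcra of thymus and Krt5 of epidermis had 0 counts in both libraries, whereas Adipoq and Plin1 of white fat and Scgb1a1 of airway were present at the counts given below. T cell markers were low, with Cd3e at 80 and 55 counts, Trac, the constant region of the T cell receptor, at 25 and 27, and Cd3g at 16 and 0.

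A log2 ratio below is the Rh2-20 mg/kg count over the Control count after scaling by the trimmed mean of M values (TMM) with a prior count of 0.5, so that a positive value was higher in Rh2-20 mg/kg. The range given after it is a 95% counting interval, which covers only the error of counting reads. A gene was called higher or lower where the ratio was at least 2-fold and a wider 95% interval, with the common dispersion of the 6 libraries added, lay wholly on 1 side of 0. That dispersion (0.0865, a coefficient of variation of 0.294) takes differences between treatments as spread. It gave a half-width of 1.18 on the log2 scale for genes with a mean over 1000 counts.

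Most genes differed little. The ratio was within 1.5-fold for 15841 of the 18328 genes (86.4%), with a 5th percentile of -0.71 and a 95th of 0.74 on the log2 scale. Genes called higher numbered 280 (1.53% of those tested) and genes called lower 248 (1.35%). The higher genes made up 53% of the called genes, and 64.2% or 63.6% of those past 2-fold where FPKM plus 1 or plus 0.1 was used in place of counts. Calls were concentrated among genes with few reads: 15.6% of the 1274 genes with a mean of 10 to 20 counts were called, against 0.217% of the 8741 genes with a mean of 1000 or more. In Control 124 of the higher genes had 0 counts, and in Rh2-20 mg/kg 88 of the lower genes did. Protein-coding genes made up 192 of the higher and 187 of the lower genes.

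**Figure D1:**
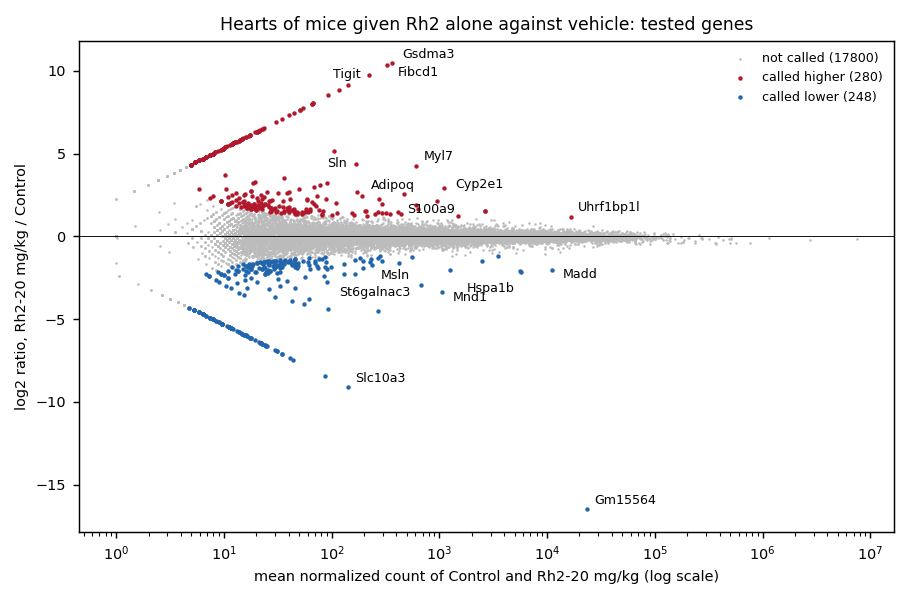
Log2 ratio of each tested gene (y axis, Rh2-20 mg/kg over Control) against its mean normalized count in the 2 libraries (x axis, log scale); points are genes, red the 280 called higher, blue the 248 called lower and grey the 17800 not called. The cloud narrows as counts grow, the called genes lie mostly at low counts, and the straight outer arms are genes with 0 counts in 1 of the libraries.

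Genes of neutrophils, short-lived phagocytes that enter tissue from blood, were higher in Rh2-20 mg/kg in 9 of 19 tested members and lower in 0. Their median log2 ratio was 1.33, beside 0.00082 over all genes tested, and 17 members were positive. Of 26 members in the table, 7 had too few reads to test. Trem1, Stfa2 and Ngp had 0 counts in Control, and Trem1 and Stfa2 had 0 in Dox as well. Stfa2 passed the filter through other libraries, whereas Trem1 reached the mean of 10 only with its 15 counts in Rh2-20 mg/kg. The ratios of Trem1, Stfa2 and Ngp could therefore not be negative in this pair, nor those of Trem1 and Stfa2 in the pair with Dox. Among all genes 15.6% were called at a mean of 10 to 20 counts and 9.65% at 20 to 50. With FPKM plus 1, a scale that damps low levels, the median of the neutrophil list was 0.37. S100a9, which with S100a8 forms the calprotectin of neutrophil cytoplasm, had 204 counts in Control against 622 in Rh2-20 mg/kg, and 287, 810, 411 and 173 in the 4 remaining libraries. The ratio of S100a9 was 2.82-fold (log2 1.49, 1.27 to 1.73), and both libraries lay within the range of the other 4. Cxcr2, the receptor for neutrophil-attracting chemokines, was higher at 230 against 81 counts (2.62-fold). Mmp8, the neutrophil collagenase, was higher at 98 against 29 counts (log2 1.63, 1.03 to 2.30), with Control the lowest of the 6 libraries. Trem1, a receptor that amplifies myeloid activation, had 15 counts against 0 and was at least 4.63-fold higher when a count of 0 is read as up to 3. Ngp had 10 counts against 0. Copies of a stefin gene, Stfa2 (20 against 0) and Stfa2l1 (52 against 13), and of a receptor gene, Mrgpra2a (56 against 8) and Mrgpra2b (68 against 10), were also called, although reads may have been divided between the copies. S100a8 had 166 against 72 counts (log2 1.09) and was not called. Ltf, lactoferrin of the secondary granules, had 19 against 42 (log2 -1.23), and the marker Ly6g 5 against 0. The summed level of the list was 19.9 CPM (counts scaled to library size) in Control, the lowest of the 6 libraries, and 39.0 in Rh2-20 mg/kg, in a range up to 63.3. Numbers of cells and RNA per cell cannot be told apart in RNA of whole hearts, for these or for any cells below.

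Promoters of 3 of the called neutrophil genes are shown because the list held the largest shift. The sequences are the 250 bases before the annotated start, from RefSeq on GRCm38.p6, read on the strand of the gene. Both strands were searched for TTGCNNAA, a core bound by C/EBP factors of granulocyte development. The motif was chosen after the values were seen, and capitals mark its match. S100a9 (chr3:90695722-90695971, minus strand) has a match that begins 236 bases before the start, Mmp8 (chr9:7558179-7558428, plus strand) one that begins 19 bases before it, and Cxcr2 (chr1:74153744-74153993, plus strand) none.
S100a9: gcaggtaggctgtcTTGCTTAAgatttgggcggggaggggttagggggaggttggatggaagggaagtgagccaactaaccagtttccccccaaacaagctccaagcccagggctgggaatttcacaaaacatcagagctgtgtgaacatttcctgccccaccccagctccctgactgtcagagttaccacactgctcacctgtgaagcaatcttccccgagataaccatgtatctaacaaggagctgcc
Mmp8: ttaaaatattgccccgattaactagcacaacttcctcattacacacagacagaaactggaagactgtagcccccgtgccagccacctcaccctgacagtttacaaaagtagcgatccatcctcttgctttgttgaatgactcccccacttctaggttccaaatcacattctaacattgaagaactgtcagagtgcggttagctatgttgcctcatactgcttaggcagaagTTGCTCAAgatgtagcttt
Cxcr2: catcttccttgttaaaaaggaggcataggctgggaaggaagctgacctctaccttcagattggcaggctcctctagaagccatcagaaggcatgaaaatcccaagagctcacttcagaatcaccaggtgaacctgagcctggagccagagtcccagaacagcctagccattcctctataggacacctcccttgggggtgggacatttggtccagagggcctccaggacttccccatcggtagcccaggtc
The letters were found in 3 of the 9 called members and in 6 of the 17 tested members with a promoter (35.3%), beside 9.56% of 32851 windows of this length. A match is a string of letters and not a shown binding site.

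Other genes of leukocyte traffic were divided. Of 17 chemokine receptors tested, 5 were called higher and 1 lower, with a median of -0.01 that was 0.06 with total counts. Cxcr2, given above with the neutrophil genes, is 1 of the 5. Over all genes tested, 15.6% were called at a mean of 10 to 20 counts and 9.65% at 20 to 50. Ccr1, a receptor of monocytes and neutrophils, was higher at 366 against 133 counts (log2 1.35). Ccr10 had 26 counts against 0, at least 8.02-fold higher, and Cxcr5 (25 against 5) and Cxcr6 (16 against 3) rested on few reads. Ccr10 passed the filter only with its counts in Rh2-20 mg/kg, and at 0 in Control its ratio could not be negative. Xcr1, a marker of cross-presenting dendritic cells, was lower at 9 against 32. Of 23 cytokine genes 2 were called, both higher: Il1a, an alarmin of the interleukin 1 family, with 27 counts against 7 (3.40-fold, log2 1.77, 0.60 to 3.28) and Tnfsf11, the RANK ligand, with 11 against 0. Tnf had 50 counts against 91 (log2 -0.97, not called) and Il18 64 against 58 (0.03).

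None of the 24 Toll-like receptors and adaptors was called, and their median was 0.07. Tlr7 and Tlr8, receptors for single-stranded RNA, and Tlr13, a receptor for bacterial ribosomal RNA, stood on the higher side. Tlr7 had 1191 counts against 559 (log2 0.98, 0.83 to 1.13, with a wider interval of -0.21 to 2.16), Tlr13 925 against 458 (0.90) and Tlr8 1342 against 722 (0.78). Tlr5, the flagellin receptor, had 553 against 275 (0.89). Tlr2, which senses lipoproteins, had 340 against 298 (0.08), and Tlr4, the lipopolysaccharide receptor, 5394 against 4907 (0.02).

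Resident macrophage genes, of phagocytes that persist in the heart muscle, had small ratios of 1 sign and no calls. All 25 tested members were positive, from 0.04 for Timd4 to 0.99 for Lyve1, with a median of 0.38, where 50.1% of all tested genes were positive. Lyve1, the hyaluronan receptor of perivascular macrophages and lymphatic vessels, had 613 counts in Control against 1318 in Rh2-20 mg/kg. Mrc1, the mannose receptor, had 14047 and 21023 (log2 0.47, 0.44 to 0.50), and the complement gene C1qc 741 and 1279 (0.67). The general markers Csf1r (3884 and 4745) and Adgre1 (1610 and 1810) differed less, at 0.18 and 0.06. The summed level was 1090 and 1364 CPM, inside the range of 976 to 1603 over the 6 libraries. Genes of recruited monocytes and macrophages had a median of -0.05, which was 0.01 with total counts, and 1 of 24 was called. That was Hp, haptoglobin, with 478 counts against 114 and 203 to 1144 in the other 4 libraries.

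Genes of mast cells, granulated cells that lie along cardiac vessels, were lower in 2 of 9 tested members and higher in 0. Over all genes tested 1.35% were called lower. Cpa3, the mast cell carboxypeptidase, had 135 counts against 317 (2.53-fold lower, log2 -1.34). Tpsab1, a tryptase gene labelled as a transcribed pseudogene, had 20 against 51. Kit had 1411 against 1894 (-0.54) and Mcpt4, a chymase, 132 against 177 (-0.53), neither called. Lymphocyte genes were sparse and mixed, with 2 of 16 T cell genes higher and 1 lower. Of B and plasma cell genes 1 of 20 was called each way. The higher T cell genes were Skap1, at 20 counts against 0, and Tigit, which overlaps Zbtb20 and is described below. Skap1 passed the filter only with its counts in Rh2-20 mg/kg, so its ratio could not be negative. Red cell genes had a median of -0.47 with 20 of 21 negative and 1 called. Hba-a1 and Hbb-bs, globin genes with near-identical copies, had 77286 counts against 99346 (-0.47) and 56977 against 72575 (-0.46). Rhag, the red cell ammonium channel, was lower at 52 against 117. The summed red cell level was 4236 CPM in Control against 3144 in Rh2-20 mg/kg, in a range of 2172 to 11296.

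Atrial light chains and sarcolipin, the calcium pump inhibitor of atrial muscle, had some of the largest ratios among genes averaging 200 counts or more. The average was over all 6 libraries and came mostly from those outside the pair. Myl7, the atrial regulatory light chain, had 56 counts in Control against 1187 in Rh2-20 mg/kg (19.5-fold higher, log2 4.28, 3.91 to 4.71). Myl7 had 52896, 10613, 19 and 9134 counts in the 4 remaining libraries. Both libraries of the pair thus lay at the low end of the 6. Sln, sarcolipin, had 14 and 326 counts (20.9-fold higher) and Myl4, the atrial essential light chain, 128 and 819. Mybphl, a further gene of atrial muscle named after its values were seen, had 14 and 125. Nppa, atrial natriuretic peptide, had 3607 and 3252 counts (log2 -0.26) and Nppb, a natriuretic peptide of stretched ventricle, 3661 and 2260 (-0.81), neither called. Of 14 atrial and natriuretic genes 3 were higher and 1, Upk3b, lower, beside 1.53% and 1.35% of all genes tested. The median of these 14 genes was 0.33 (0.05 with FPKM plus 1). Their summed level was 175 and 178 CPM, of a range up to 2069, and 87.9 and 117 without Nppa and Nppb.

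White fat genes were higher in 6 of 21 tested members, beside 1.53% of all genes tested, and lower in 0. Their median was 0.37 (0.17 with FPKM plus 1). Adipoq, the fat cell hormone adiponectin, had 56 counts in Control against 330 in Rh2-20 mg/kg (5.41-fold higher, log2 2.44, 2.03 to 2.88), with 3716, 317, 8 and 650 in the 4 remaining libraries. Plin1, which coats the lipid droplet, had 10 and 72, and Cidec, a droplet fusion protein, 40 and 180. Car3, a carbonic anhydrase of fat and muscle, had 333 and 1585, and Cfd, adipsin, 287 and 989. Adrb3, the beta receptor of fat cells, had 0 and 43 (at least 13.3-fold higher). The white fat hormone Lep was at 0 in both, and the brown fat gene Ucp1 at 0 and 8. Fat genes that other cells of the heart also use stood near no difference: Plin4 had 89000 and 89442 counts (log2 -0.11) and Fabp4 60838 and 63214 (-0.06). The list summed to 2015 CPM in Control and 1949 in Rh2-20 mg/kg. Without Plin4 and Fabp4, which made up 89.2% of the sum in Control, it was 217 and 254.

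Of 43 drug efflux and metabolism genes tested, 1 was called higher, Cyp2e1, and 1 lower. The other metabolic genes here are named after their values were seen and stand for no list. The lists for fatty acid oxidation, lipid synthesis and glycolysis had 0 calls. Cyp2e1, a cytochrome P450 that oxidizes ethanol, had 242 and 2003 counts (7.64-fold higher, log2 2.93). Pck1, of gluconeogenesis and glyceroneogenesis, had 43 and 307, Ces1f, a carboxylesterase, 16 and 169, and Rbp4, the retinol carrier, 98 and 313. Liver markers were near 0, with Alb at 25 and 0 counts and Apoa1 at 0 and 4. Of 10 liver genes 2 were higher, Cyp2e1 among them, and 2 lower. Myl7, Myl4, Sln, Adipoq, Plin1, Cidec, Cfd, Car3, Cyp2e1, Pck1, Ces1f and Rbp4 were grouped by an order seen in their values. Their count was lowest in Rh2-30 mg/kg + Dox, next in Control and highest in Rh2-30 mg/kg. Mybphl was instead lowest in Control (14, with 21 in Rh2-30 mg/kg + Dox). Nppa was lowest in Rh2-20 mg/kg (3252) and had 6416 in Rh2-30 mg/kg + Dox. The part of atrium and fat in these ratios was not tested.

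**Figure D2:**
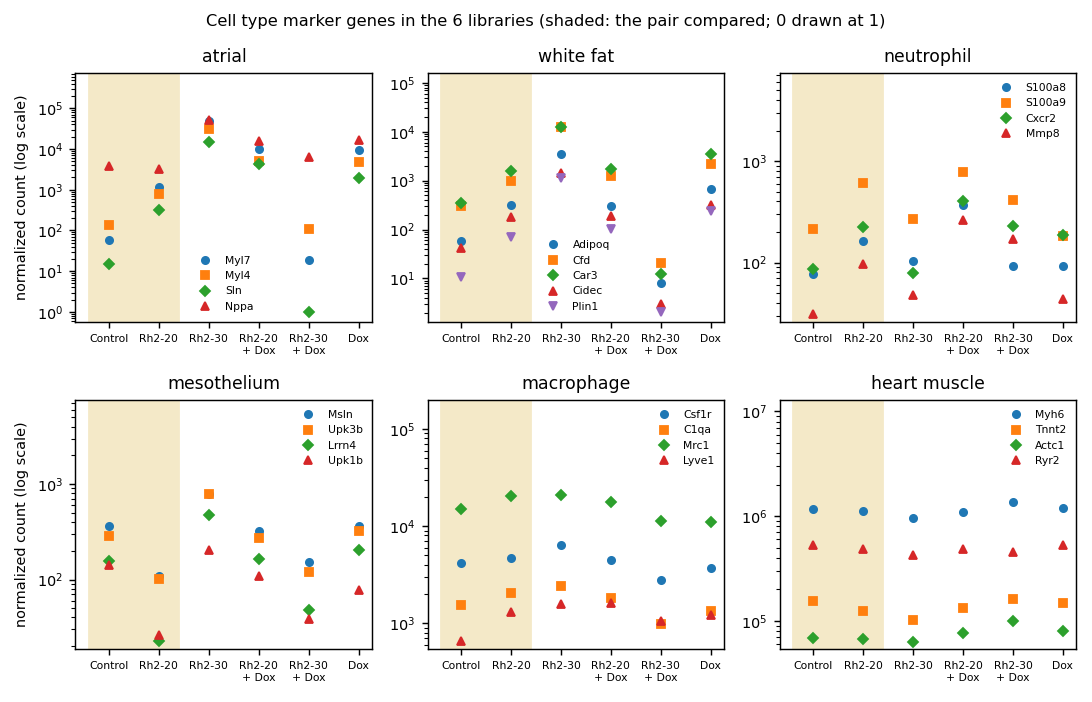
Normalized counts (y axis, log scale, 0 drawn at 1) of marker genes for 6 tissues or cell types in each of the 6 libraries (x axis), with the Control and Rh2-20 mg/kg pair shaded; each point is 1 library. Atrial light chains, sarcolipin and fat genes are low in Control and highest in Rh2-30 mg/kg, the mesothelial genes are lowest in Rh2-20 mg/kg, and the heart muscle genes are nearly level.

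Mesothelial genes, of the flat epithelium that covers the heart, were lower in 8 of 20 tested members and higher in 0. Over all genes tested 1.35% were called lower. The share called in either direction was 9.65% at a mean of 20 to 50 counts and 4.34% at 50 to 100. The median was -0.87, which was -0.36 over members with a mean of at least 100 counts and -0.15 with FPKM plus 1. Msln, mesothelin, had 341 counts in Control against 112 in Rh2-20 mg/kg (3.28-fold lower, log2 -1.71), with 843, 337, 150 and 342 in the 4 remaining libraries. Lrrn4 had 149 and 23 counts (6.87-fold lower), the uroplakins Upk3b and Upk1b 271 and 102, and 134 and 27, and the transcription factor gene Bnc1 130 and 38. The simple-epithelium keratins Krt19 (146 and 44), Krt8 (44 and 13) and Krt7 (67 and 20) were lower as well. For Msln, Upk3b, Lrrn4 and Upk1b, Rh2-20 mg/kg was the lowest of the 6 libraries. Wt1, a transcription factor of epicardium, had 1873 and 2229 counts (0.14) and Tbx18, another, 792 and 801 (-0.10). The summed level was 382 and 499 CPM, of which C3 and Clca3a1 made up 72.3% in Control, and 106 and 88.2 without them. The part of the covering layers in these values was not tested. Of 8 lung genes tested, 1 was called higher and 1 lower. The lower one was Scgb1a1, of airway club cells, at 9 against 77 counts.

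**Figure D3:**
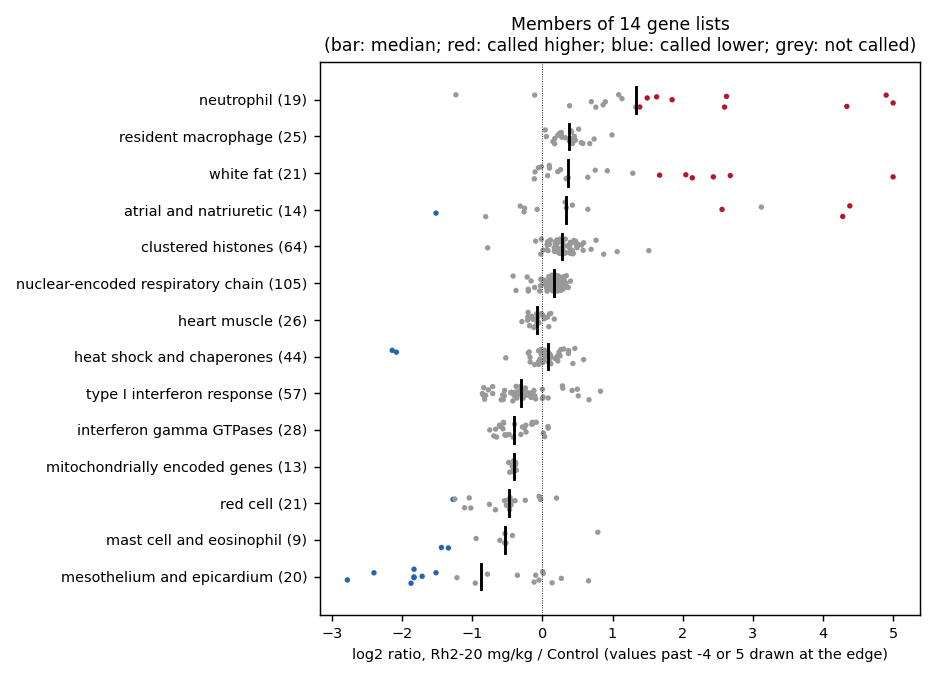
Log2 ratios (x axis, Rh2-20 mg/kg over Control, values past -4 or 5 drawn at the edge) of the tested members of 14 gene lists (y axis, number of members in parentheses); each point is a gene, black bars are medians, red points were called higher and blue points lower. The neutrophil list lies to the right with a median of 1.33, the mesothelial list to the left with -0.87, and the heart muscle list is narrow around -0.07.

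The inducible HSP70 genes were lower among chaperones that otherwise had no call. Of 44 heat shock and chaperone genes 2 were called, both lower, and the median was 0.08. Hspa1b had 8873 counts in Control against 2174 in Rh2-20 mg/kg (4.41-fold lower, log2 -2.14, -2.21 to -2.07), and 8731, 4739, 2081 and 8651 in the 4 remaining libraries. Control, Rh2-30 mg/kg and Dox were thus alike and high, and Rh2-20 mg/kg and Rh2-30 mg/kg + Dox low. Hspa1a had 8628 and 2203 counts (4.23-fold lower). Hspa8, the constitutive family member, had 126209 and 137132 (0.01), and Hspa1l 1224 and 921 (-0.52, not called). Hspa1a and Hspa1b are near-identical copies whose reads may have been divided between them, so their calls are not separate. Their promoters, the 250 bases before the start on GRCm38.p6 from RefSeq (chr17:34972157-34972406 and chr17:34959239-34959488, both minus strand), are shown because these genes carry the calls of the list. Both strands were searched for GAANNTTC, the paired unit of a heat shock element, in capitals, which begins 104 bases before each start. The windows differ at 3 of 250 bases.
Hspa1a: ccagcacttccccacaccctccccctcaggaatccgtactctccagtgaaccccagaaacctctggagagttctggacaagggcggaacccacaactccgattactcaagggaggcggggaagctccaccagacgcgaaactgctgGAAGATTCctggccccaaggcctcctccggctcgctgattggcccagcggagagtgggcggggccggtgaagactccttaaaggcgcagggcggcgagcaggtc
Hspa1b: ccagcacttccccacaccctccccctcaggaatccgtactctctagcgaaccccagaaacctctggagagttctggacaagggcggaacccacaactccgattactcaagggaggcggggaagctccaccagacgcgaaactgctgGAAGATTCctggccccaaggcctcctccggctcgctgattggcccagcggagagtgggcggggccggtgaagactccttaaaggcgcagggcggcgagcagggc
The letters were found in 10 of the 45 windows of the 34 members of the list with a promoter (22.2%) and in 6.69% of all 32851 windows.

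Immediate early genes, which respond within minutes of a stimulus, had 1 of 37 called and a median of -0.23. Egr3, an early growth response factor, was lower at 116 against 318 counts (2.95-fold, log2 -1.56, -1.89 to -1.26). The nuclear receptors Nr4a1 (3509 against 6473) and Nr4a3 (1111 against 2232) were not called. Glucocorticoid targets and metallothioneins had a median of 0.28 with 21 of 26 positive. Ddit4, a stress-induced brake on mTOR, had 1621 against 744 counts (2.02-fold, with a wider interval of -0.17 to 2.19) and Errfi1, an inhibitor of EGF receptor signalling, 5830 against 2919 (0.89), neither called. The called member was Tat, a liver enzyme gene, lower at 2 counts against 27. Irs2, the insulin receptor substrate, was lower at 1344 against 3418 counts (2.75-fold) with Control the highest of the 6 libraries, and was named after its values were seen. Circadian clock genes had 0 of 34 called.

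Interferon-induced genes had no calls and mostly negative ratios. The 28 interferon gamma-induced GTPases and related genes, which act against pathogens inside cells, had 24 negative ratios and a median of -0.41 (-0.15 with FPKM plus 1). Gbp4, a guanylate-binding protein, had 21322 counts against 31011 (log2 -0.65, -0.68 to -0.63), with 106283 in Dox, and Gbp5 2449 against 3811 (-0.75). The 57 type I interferon response genes had 48 negative ratios and a median of -0.31 (-0.17 with FPKM plus 1). Zbp1, a sensor of Z-form nucleic acid, had 271 against 454 counts (-0.86) and Oasl2 2086 against 3464 (-0.84), whereas Ifi207, of the p200 family, had 11294 against 5885 (0.83). Class I antigen presentation genes had a median of -0.21 and class II of -0.16, with 0 called in either.

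Heart muscle genes differed little, with 0 of 26 called. Their ratios ran from -0.29 for Tnnt2, cardiac troponin T (144786 counts in Control against 127853 in Rh2-20 mg/kg), to 0.17 for Ckm, muscle creatine kinase (28630 and 34824). The median was -0.07, and 0.02 with FPKM plus 1. Ryr2, the calcium release channel, had 502616 and 494537 counts, and Pln, phospholamban, 82481 and 81926. Ion channel and calcium handling genes had 1 of 39 called, which was Sln. Kcna5, a voltage-gated potassium channel, had 4958 against 2977 (0.62, not called). Genes of the fetal and stress programme had 0 of 17 called, with Acta1, skeletal actin, at 42807 and 43715.

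Genes of energy metabolism had small ratios that differed by the genome that holds them, with no call in any of the 6 lists shown. All 13 mitochondrially encoded protein genes were negative, from -0.48 to -0.37, with a median of -0.41 (-0.34 with total counts). COX1, of cytochrome oxidase, had 814820 counts in Control against 666276 in Rh2-20 mg/kg, ND1, of complex I, 396944 and 318280, and ATP6, of ATP synthase, 188838 and 152347. The nuclear-encoded respiratory chain had a median of 0.17 with 94 of 105 positive. Ndufs4 and Ndufs8, of complex I, had 8088 against 5668 counts (0.40) and 5295 against 3794 (0.37). Mitochondrial ribosomal proteins had a median of 0.15, fatty acid oxidation and PPAR targets 0.18, glycolysis 0.14 and cytosolic ribosomal proteins 0.05. The mitochondrially encoded genes are copied from 1 small genome as long transcripts, so their 13 ratios are not separate measurements. In the pair with Dox the medians were -0.39 for the mitochondrially encoded genes and 0.16 for the nuclear-encoded chain.

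**Figure D4:**
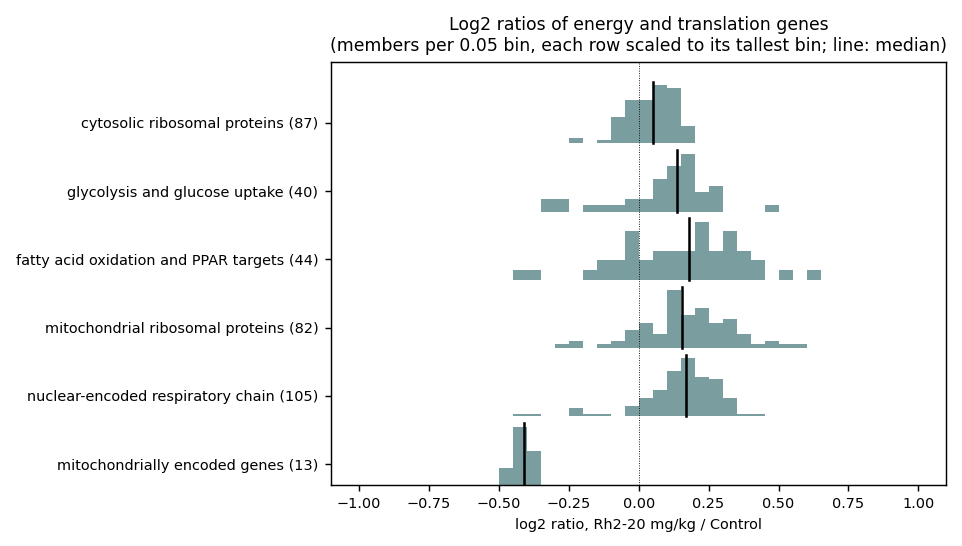
Distribution of log2 ratios (x axis, Rh2-20 mg/kg over Control, bins of 0.05) for the members of 6 gene lists (y axis, number of genes in parentheses); bars count genes, scaled within each list to its tallest bin, and black lines mark medians. The 13 mitochondrially encoded genes lie wholly below 0, around -0.41, and the nuclear-encoded lists lie mostly above 0, with medians of 0.05 to 0.18.

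Histone genes had mostly positive ratios without calls, and cell division genes were mixed. Of 64 clustered histone genes 60 were positive, with a median of 0.28. H2bc14 had 460 counts against 203 (log2 1.07) and H3c1 468 against 236 (0.87). Mitotic genes had a median of 0.14 with 55 of 76 positive and 21 negative, and S phase genes 0.07 with 28 of 48 positive, with 0 calls in either list. Top2a, the topoisomerase of dividing cells, had 2238 against 1646 counts (0.33), beside 2942 in Rh2-30 mg/kg and 117 to 794 in the libraries with Dox.

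Matrix genes had few calls. Of 21 metalloproteinases and inhibitors 2 were higher and 1 lower. Beside Mmp8, Timp4, a metalloproteinase inhibitor abundant in heart, was higher with 2129 counts against 831 (2.37-fold, log2 1.24, 1.13 to 1.36) and 1443 to 4904 in the other 4 libraries, so that Control was the lowest of the 6. Mmp13, a collagenase, was lower at 22 against 65 counts. Mmp9, gelatinase B, had 143 against 60 (1.13, not called) and Mmp2, gelatinase A, 7690 against 6470 (0.14). Col1a1, the main fibrillar collagen chain, had 13918 against 13047 (-0.02, and 0.05 with total counts), and of 41 collagen chains 2 sparse ones, Col4a6 and Col9a2, were lower. Acta2, smooth muscle actin, had 20744 against 21968 (-0.19), and Postn, periostin of activated fibroblasts, 8472 against 12890 (-0.72), neither called. Cdkn1a, the p21 inhibitor of cell division, had 431 counts against 230 (0.79, with a wider interval of -0.41 to 1.99) and Cdkn2a 23 against 19. Of 34 p53 targets 1 was higher, Pmaip1, a pro-apoptotic BH3-only gene, with 31 counts against 9.

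Some of the largest ratios came from genes read in 1 library of the pair and nearly absent from the other. Genes with at most 3 counts in Control and at least 50 in Rh2-20 mg/kg numbered 17, and 10 were the reverse, beside 15 and 16 in the pair with Dox. Of these 27 genes 23 overlapped another gene of the table. The overlap is of whole gene spans, without regard to strand or exons, so it does not show shared reads. Gsdma3, Fibcd1, Serpina3m and H2-T3 overlapped none. The share of overlapping genes among all tested genes was not counted, and the part of read assignment was not tested. Gm15564, a long non-coding RNA at chr16:35966751-35983329 (GRCm38.p6) that overlaps Kpna1 and Parp9, had 44214 counts in Control, 0 in Rh2-20 mg/kg and 36868 to 64699 in the other 4 libraries (at least 15930-fold lower). Gsdma3, a gasdermin, had 738 counts in Rh2-20 mg/kg, 0 in Control and 0 to 5 elsewhere (at least 228-fold higher). Fibcd1, a receptor for acetylated sugars, had 669 counts against 0 and 0 to 2 elsewhere. Tigit, an inhibitory receptor of lymphocytes, had 456 counts against 0 and 258 to 533 elsewhere, and overlaps Zbtb20, which had 20378 against 18987. Serpina3m had 288 counts against 0 and Moap1, a modulator of apoptosis, 241 against 0. Slc10a3 was lower at 0 counts against 265, with 398, 0, 0 and 332 in the 4 remaining libraries. It overlaps Gm44504, which was called higher at 41 counts against 7. Prn had 0 counts against 77. Of the genes that overlap Prn, Prnd, a relative of the prion protein gene, was called higher at 55 against 17, and the prion protein gene Prnp had 7137 against 5482. The read-through gene Eef1akmt4-ece2 had 0 counts against 164 and 0 in the other 4 libraries, and the overlapping Ece2 had 167 against 138. Gm19897, which overlaps Sirt2, had 0 counts against 83.

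The rule for the largest changes named further genes of this kind. Gpr17, an orphan receptor, had 137 counts against 0, Xlr3b 211 against 5, and Cers1, a ceramide synthase, 47 against 0. Among the lower genes Kcnj13, an inward rectifier potassium channel, had 0 against 65, the class I-like gene H2-T3 0 against 59, and the sodium channel gene Scn1a 0 against 45.

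Among genes with a 6-library mean of 200 counts or higher and more than 3 counts in both compared libraries, 56 were called. Of these 36 were higher and 20 lower. Some reached that mean through a library outside the pair and were sparse in the pair itself. Plin1 had 10 and 72 counts with 1217 in Rh2-30 mg/kg, and Sln 14 and 326 with 15768. The others named here were chosen after their values were seen. Mnd1, a meiotic recombination factor, had 1815 counts in Control against 192 in Rh2-20 mg/kg (10.2-fold lower, log2 -3.35), 1968 in Dox and 160 to 436 in the other 3 libraries. St6galnac3, a sialyltransferase, had 1136 and 157 counts (7.80-fold lower) and 1034 to 1175 in the other 4, so Rh2-20 mg/kg alone stood apart. Madd, a regulator of Rab proteins, had 16795 and 4364 counts (4.16-fold lower) and 3950 to 4635 in the other 4, so Control alone stood apart. Uhrf1bp1l had 9661 and 23638 counts (2.26-fold higher), 20867 in Rh2-30 mg/kg + Dox and 9469 to 10756 in the other 3. Serpina3n, an acute phase protease inhibitor, had 1276 and 4058 counts (2.94-fold higher, log2 1.56, 1.47 to 1.65), and Dpm1, which makes dolichol-linked mannose, 1286 and 4042. Penk, proenkephalin (154 and 435), Jaml, a leukocyte adhesion molecule (166 and 475), and Cd300lf, a myeloid receptor (119 and 305), were higher with Control the lowest of the 6 libraries for each. Of all 280 higher genes, Control alone lay outside the range of the other 4 libraries for 114, Rh2-20 mg/kg alone for 37, both for 46 and neither for 83. Of the 248 lower genes, Rh2-20 mg/kg alone was outside for 78, Control alone for 56, both for 48 and neither for 66. Over all tested genes Control alone was outside for 20.9%, Rh2-20 mg/kg alone for 11.5% and both for 17.6%.

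The pair with Dox shows the called genes at the same Rh2 dose in another setting, which is not a repeat. There 564 genes (3.08% of those tested) were at least 2-fold higher and 630 (3.44%) at least 2-fold lower. Of the 280 genes called higher without Dox, 66 (23.6%) were at least 2-fold higher in that pair and 43 (15.4%) at least 2-fold lower, with a median of 0.13. Of the 248 called lower, 55 (22.2%) were lower and 33 (13.3%) higher, with a median of -0.16. The median of the mean counts was 28 for the called higher genes, 25.3 for the called lower genes and 881 over all tested genes. The standard deviation of log2 ratios in the main pair was 1.98 at 10 to 20 counts and 0.291 at 1000 or more. No share at matched counts was computed. In the pair with Dox neutrophil genes had a median of 1.49 with all 19 positive. Of these Trem1 and Stfa2, at 0 counts in Dox, could not be negative. S100a9 had 810 counts against 173 and Mmp8 274 against 42. Serpina3n (log2 1.68), Jaml (1.28), Cd300lf (1.07) and Penk (1.03) were past 2-fold higher in both pairs, and Mnd1 (-2.99) past 2-fold lower in both. Hspa1b was at -0.99 with Dox. Madd (-0.25), St6galnac3 (-0.17), Uhrf1bp1l (0.03) and Myl7 (0.09) differed little with Dox. Adipoq was at -1.16 with Dox, Plin1 at -1.24 and Pck1 at -2.30, and the mesothelial list had a median of 0.18.

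**Figure D5:**
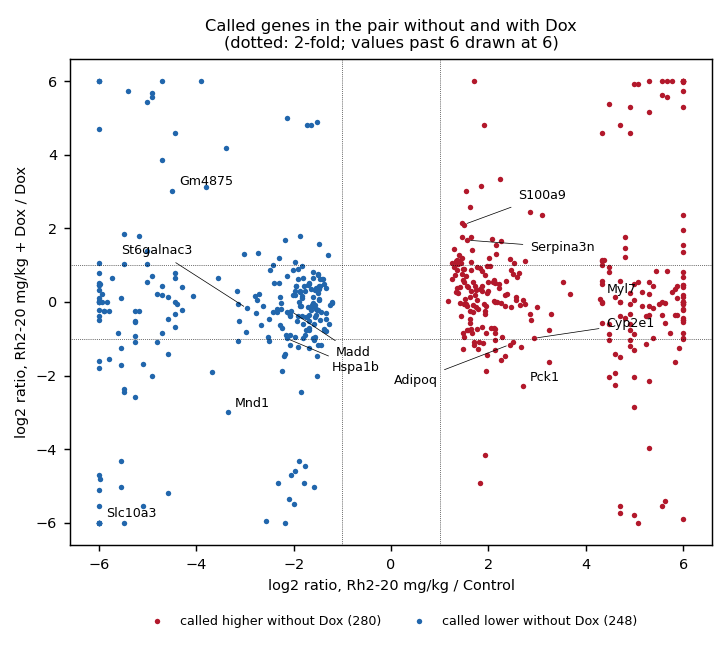
Log2 ratio in the pair with Dox (y axis, Rh2-20 mg/kg + Dox over Dox) against the ratio without Dox (x axis, Rh2-20 mg/kg over Control) for the 528 called genes, red higher and blue lower; dotted lines mark 2-fold and values past 6 are drawn at 6. Most called genes lie between the dotted lines on the y axis, with S100a9 and Serpina3n higher in both pairs, Mnd1 lower in both, and Pck1 and Gm4875 on opposite sides.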

How the data were processed

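Heart RNA of 6 groups was measured by RNA sequencing, 1 library of 5 pooled hearts each. Per the labels and the study's methods, the authors used bcl2fastq 2.20.0, Trimmomatic, HISAT2 2.1.0 and StringTie 2.1.3b on mm10. The authors deposited raw read counts per gene, quantified with StringTie on an annotation from the UCSC table browser and given as whole numbers. The deposited FPKM values were scaled by the authors for length and depth. The deposited TPM values, scaled by the authors for the same, were not used here. Strand handling in the counting was not given in the sources used here.

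Genes with a mean of 10 counts or more were kept, and counts were scaled by TMM in edgeR 4.0.16 (R 4.3.3) with a prior count of 0.5. Counting intervals were exact conditional binomial. The wider interval added edgeR's common dispersion of the 6 libraries taken as 1 group. The counting interval and the limit for a count of 0 (3 counts) cover no variation between pools, and the wider interval holds it together with differences between treatments. Tables were handled in Python 3.11.15 with pandas 2.3.3, numpy 2.4.6 and scipy 1.17.1, and drawn with matplotlib 3.10.9. Scripts were tested on simulated data. Alternatives were DESeq2 1.42.0 size factors, total counts, filters, prior counts, dispersions and FPKM. Gene IDs of 18301 tested genes matched RefSeq.

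Members and lists were chosen with earlier results of these data known. Genes were named as follows: the 12 largest rises and 12 largest falls among called genes with a curated symbol, by the counting bound nearest 0; up to 4 called members a list, or else its largest ratios at a mean of 100 counts; the 5 best-counted genes a direction that were at 3 counts or fewer against 50 or more; defining markers; and Toll-like receptors, metalloproteinases and inhibitors, Il1a, Il18, Tnf, Cdkn1a, Cdkn2a, Acta2, Col1a1 and Mrc1. Of these the text names those that carry a described list or pattern.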

Additional observations from a re-analysis of the deposited data

Results flagged for a closer look

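For 12 of the genes named by the rule or after their values were seen, and called without Dox, the ratio in the pair with Dox lay past 2-fold on the other side. The difference between the pairs was not tested, since each pair has 1 library a side. On the log2 scale, Rh2-20 mg/kg + Dox over Dox, the fat genes Adipoq, Plin1 and Car3 were at -1.16, -1.24 and -1.02, Pck1 at -2.30, Slc7a10, an amino acid transporter, at -1.08, Ces1f at -1.63, Apol11b at -1.12, the chemokine gene Ccl4 at -1.94 and Jchain, of antibody-secreting cells, at -1.89, all of them called higher without Dox. Prn was at 4.70, Gm4875 at 3.02 and Ttr, transthyretin, at 1.39, and these were called lower without Dox.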

How the results depend on the processing

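The numbers of genes called higher and lower (280 and 248) depended on the filter and on the spread assumed. They were 441 and 440 with no filter, 60 and 39 at a mean of at least 100 counts, and 143 and 131 with a count above 0 in every library. They were 530 and 463 with counting error alone, 499 and 447 with a coefficient of variation of 0.1, and 177 and 161 with 0.4. FPKM plus 1 with the fold alone gave 34 and 19, and FPKM plus 0.1 gave 236 and 135. Chosen after seeing the data, edgeR's robust deviance dispersion gave 460 and 404, more than 3 counts in both libraries 143 and 142, and the fold alone 612 and 513. DESeq2 size factors (278 and 249), total counts (318 and 221) and a prior count of 2 (251 and 216) stayed within 1.5 times. A fold of 1.5 could not change the numbers, since the wider interval already asks for more than 2-fold. No named gene that was called changed sign. Of the uncalled ones, 9 changed sign with FPKM values and 3 with total counts, among them Col1a1 (0.05 in both). Of the 395 list medians recomputed 57 moved, and none at least 0.2 from 0 changed sign. No paired analysis was possible because each condition had 1 library, and no library could be left out. A fit over both pairs, with the Rh2 ratio taken as equal with and without Dox, was not run. Depth limits genes under about 100 counts, where most calls lie.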
